A study of Mus musculus with 12 samples.

Results

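A set of 10 genes that mark oligodendrocyte precursors and premyelinating oligodendrocytes was followed in the spinal cords of 12 mice, all aged 1 week. They were taken by gene name, Pdgfra, Cspg4, Olig1, Olig2, Sox10, Gpr17, Bmp4, Enpp6, Ptprz1 and Tcf7l2, which makes 10 of the 38924 genes in the deposited tables, and each name matched 1 row. All 10 were among the 17995 genes with enough counts to be tested. The mice were either wt or GarsP278KY/+, which carries 1 mutant copy of Gars. This gene encodes the enzyme that charges glycine tRNA, and the allele is a dominant mouse model of inherited peripheral neuropathy, sampled here ahead of disease onset. Both genotypes were on a B6J;CAST background. Each sex contributed 3 wt and 3 P278KY mice, with 1 library per mouse, named here by its labelled sex, genotype and mouse number.

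Oligodendrocyte precursors divide and migrate through the cord before and after birth, driven by PDGF from neurons and astrocytes acting on the receptor PDGFRA. A precursor that leaves the cell cycle passes through a short committed stage marked by GPR17 and then a premyelinating stage marked by ENPP6, before it makes myelin. OLIG1, OLIG2 and SOX10 are transcription factors present through the whole lineage, and in the mouse cord the first postnatal weeks are a time of active myelination. In whole tissue, fewer cells of a type and less RNA per cell cannot be told apart.

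The data behind these values were deep. Expected counts, the estimated numbers of fragments per gene, summed to between 27713981 and 43219891 per library, and the 10 genes held from 237 (Bmp4 in female P278KY 4) to 20877 (Ptprz1 in male wt 6). Sex-linked RNAs went against the label in 2 wt libraries, female wt 14 and male wt 19, so any comparison by sex contains them. Female wt 14 also held 282.6 CPM (counts scaled to library size) of sensory ganglion neuron RNA summed over 7 markers, against 15.4 to 22.5 CPM in the other 5 wt and 12.2 to 20.9 CPM in the 6 mutant libraries, and all 7 had a lower fitted level in P278KY. Skeletal muscle RNA summed over 10 markers ran from 26.4 to 1013 CPM in wt and from 78.3 to 2709 CPM in the mutants, and all 10 had a higher fitted level in P278KY. The part of these cells in the results below was not tested, apart from the relations given near the end. Schwann cell RNA, summed over 9 markers, ran from 222.0 to 2423 CPM in wt and from 80.8 to 1777 CPM in the mutants, and all 9 had a lower fitted level in P278KY. No marker of these 3 lists passed the threshold by genotype (edgeR adjusted p). An unadjusted edgeR p under 0.05 was found for 4 muscle, 1 sensory ganglion and 0 Schwann cell markers, beside 4.09% of all genes.

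Promoter sequence is shown for 3 members, since the results below separate Bmp4 and Enpp6, which varied widely between mice, from Pdgfra, which did not. Each line gives the 250 bases before the RefSeq start on GRCm38.p6, 5′ to 3′ on the gene's own strand. Capitals mark matches to CANNTG, the E-box read by basic helix-loop-helix factors such as OLIG1 and OLIG2, which is the same on both strands.
Bmp4, chr14:46390670-46390919, minus strand: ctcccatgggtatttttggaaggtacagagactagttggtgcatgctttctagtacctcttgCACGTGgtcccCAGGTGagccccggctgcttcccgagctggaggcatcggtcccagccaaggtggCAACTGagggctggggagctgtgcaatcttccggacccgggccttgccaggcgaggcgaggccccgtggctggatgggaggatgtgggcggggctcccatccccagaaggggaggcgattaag
Enpp6, chr8:46986637-46986886, plus strand: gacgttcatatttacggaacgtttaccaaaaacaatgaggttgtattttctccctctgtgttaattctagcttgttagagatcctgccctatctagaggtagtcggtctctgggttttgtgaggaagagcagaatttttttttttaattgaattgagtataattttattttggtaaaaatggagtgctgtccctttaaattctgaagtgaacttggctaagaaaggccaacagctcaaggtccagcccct
Pdgfra, chr5:75152001-75152250, plus strand: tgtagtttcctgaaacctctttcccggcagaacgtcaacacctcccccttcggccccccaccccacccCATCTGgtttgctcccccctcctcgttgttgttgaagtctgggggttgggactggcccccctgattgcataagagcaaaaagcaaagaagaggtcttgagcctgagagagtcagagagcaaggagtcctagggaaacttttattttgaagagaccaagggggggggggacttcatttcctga
The Bmp4 window held 3 E-boxes, the Pdgfra window 1 and the Enpp6 window 0, and 66.2% of the 32851 promoter windows in that table held at least 1. No match to ACAAAG or its reverse complement CTTTGT, a core bound by SOX factors, was found in these 3 windows, nor to ATCAAAG or its reverse complement CTTTGAT, a core bound by TCF/LEF factors such as TCF7L2, against 16.5% and 3.21% of all windows. The windows also differed in base composition, with a GC share of 63.2% for Bmp4, 54.4% for Pdgfra and 38.4% for Enpp6. Windows were found for 7 of the 10 members. These matches are a description of letters and are set against no binding data.

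Levels were compared between genes in TPM (transcripts scaled to length and library size), which corrects for transcript length. Every member was present in every library, from 8.45 TPM (Bmp4 in female P278KY 4) to 232.5 TPM (Olig1 in female wt 1). Olig1 was the most abundant, with a mean of 203.9 TPM over 12 libraries, followed by Gpr17 (135.8 TPM), Ptprz1 (110.6 TPM), Sox10 (89.4 TPM), Olig2 (64.9 TPM), Enpp6 (60.3 TPM), Pdgfra (54.4 TPM), Cspg4 (19.1 TPM), Tcf7l2 (14.96 TPM) and Bmp4 (13.95 TPM). The step from Olig1 to Gpr17 held in 12 of 12 libraries, as did those from Sox10 to Olig2, from Pdgfra to Cspg4 and from Cspg4 to Tcf7l2. The other neighbours were not separated beyond their spread: Gpr17 lay above Ptprz1 in 9 of 12 libraries, Ptprz1 above Sox10 in 10, Olig2 above Enpp6 in 8, Enpp6 above Pdgfra in 8 and Tcf7l2 above Bmp4 in 7.

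**Figure D1:**
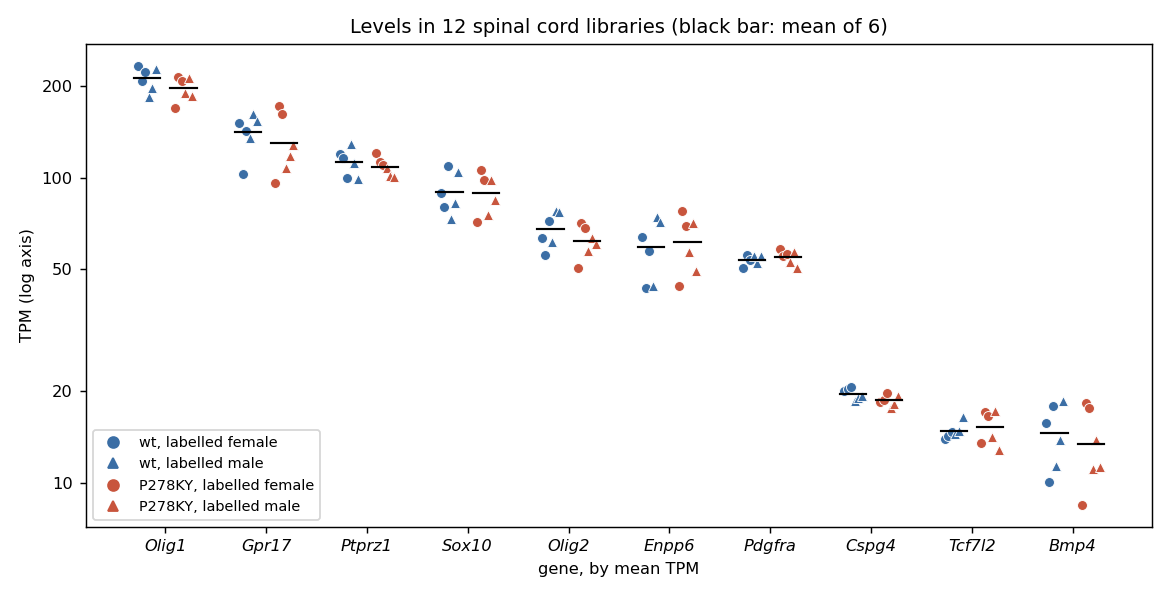
TPM on a log axis for each of the 10 genes, with 1 point per library, circles for labelled females and triangles for labelled males, and the black bar at the mean of 6 libraries per genotype. The wt and P278KY points overlap for every gene, and Enpp6, Bmp4 and Gpr17 are spread more widely than Pdgfra and Cspg4.

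P278KY cords did not differ detectably from wt cords in any of these genes. Of the 10, 4 had a higher and 6 a lower fitted level in P278KY, against 53.1% of all 17995 genes with a lower one, and the libraries of the genotypes overlapped for all 10, where 0.222% of all genes had the 6 libraries of 1 genotype beyond the 6 of the other. None passed the threshold (edgeR quasi-likelihood test, adjusted p of 0.9999 for each, adjusted over all genes). An unadjusted p under 0.05 was found for 0 of 10, beside 4.09% of all genes, so this count does not set the members apart. The background is low, since 0.00556% of all genes passed by genotype, which is 1 gene. DESeq2, which called 33 genes (0.185% of those it gave an adjusted p), called 0 of the 10. Limma-trend on log2(TPM + 1), which called 0.00556% of all genes, also called 0 of the 10. Their median log2 fold change was -0.02, beside -0.01 over all genes tested. What the data do give is a bound on each difference, and it is narrow for some members and wide for others. Below, each ratio and interval by genotype comes from the edgeR fit to counts with labelled sex as a term. The exact permutation p of a level is on log2 CPM. Neither is computed from the TPM values printed beside it, and the scales can differ. Mean Bmp4 TPM, for example, was 14.5 in wt and 13.4 in P278KY libraries.

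The precursor surface proteins had the narrowest bounds. Pdgfra, the PDGF receptor that keeps precursors dividing, was at 50.6, 54.4 and 55.8 TPM (lowest, median and highest of 6) in wt and at 50.4, 55.8 and 58.4 TPM in P278KY libraries. Its P278KY level was 1.05 times wt (95% interval 0.966 to 1.14; exact two-sided permutation p = 0.21, n = 6 and 6), and the ranges of the genotypes overlapped. Cspg4, the NG2 proteoglycan of precursors and of pericytes, was at 18.5, 19.6 and 20.6 TPM in wt and at 17.6, 18.5 and 19.7 TPM in P278KY libraries. The Cspg4 ratio was 0.977 (95% interval 0.910 to 1.05; exact permutation p = 0.442, n = 6 and 6). Ptprz1, a receptor tyrosine phosphatase of precursors and astrocytes, was at 99.0, 113.8 and 128.6 TPM in wt and at 100.6, 109.0 and 120.6 TPM in P278KY libraries, with a ratio of 0.994 (95% interval 0.902 to 1.10; exact permutation p = 0.939, n = 6 and 6). Ptprz1 lies on chromosome 6, 32.0 Mb from Gars.

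The lineage transcription factors were bounded less tightly. Olig1 was at 184.3, 214.4 and 232.5 TPM in wt and at 169.8, 198.5 and 213.5 TPM in P278KY libraries, a ratio of 0.951 (95% interval 0.844 to 1.07). Olig2, which is required to specify the lineage, was at 55.6, 67.9 and 78.0 TPM in wt and at 50.7, 62.0 and 70.8 TPM in P278KY libraries, a ratio of 0.934 (95% interval 0.795 to 1.10). Olig2 and Olig1 were both lowest in female P278KY 4, and neither gene separated the genotypes. Sox10, which drives myelin gene transcription, was at 73.4, 85.9 and 109.1 TPM in wt and at 71.5, 91.5 and 106.0 TPM in P278KY libraries, a ratio of 1.02 (95% interval 0.841 to 1.23). Tcf7l2, a WNT effector switched on as precursors differentiate, was at 13.9, 14.5 and 16.4 TPM in wt and at 12.8, 15.4 and 17.2 TPM in P278KY libraries, a ratio of 1.05 (95% interval 0.909 to 1.22). The exact permutation p of these 4 genes lay between 0.405 (Olig1) and 0.877 (Sox10; n = 6 and 6). Olig1 and Olig2 lie in tandem on chromosome 16 (91269772 to 91271933 and 91225457 to 91228677, plus strand, GRCm38), and the TPM ratio of Olig1 to Olig2 within a library was 2.53 to 3.72 in wt and 3.02 to 3.35 in P278KY libraries.

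The genes of the committed and premyelinating stages had the widest bounds. Gpr17, a receptor that holds committed cells back from myelinating, was at 102.9, 146.8 and 162.2 TPM in wt and at 95.8, 122.7 and 171.5 TPM in P278KY libraries, a ratio of 0.946 (95% interval 0.749 to 1.196; exact permutation p = 0.576, n = 6 and 6). Bmp4, a secreted growth factor that also acts outside this lineage, was at 10.03, 14.7 and 18.5 TPM in wt and at 8.45, 12.5 and 18.2 TPM in P278KY libraries, a ratio of 0.981 (95% interval 0.724 to 1.33; exact permutation p = 0.89, n = 6 and 6). Enpp6, a choline phosphodiesterase of newly formed oligodendrocytes, was at 43.5, 60.6 and 74.2 TPM in wt and at 44.1, 63.2 and 77.6 TPM in P278KY libraries, a ratio of 1.07 (95% interval 0.801 to 1.44; exact permutation p = 0.632, n = 6 and 6). Within a library the TPM ratio of Gpr17 to Pdgfra was 1.85 to 3.09 in wt and 1.64 to 3.10 in P278KY libraries, and that of Enpp6 to Pdgfra was 0.780 to 1.42 in wt and 0.755 to 1.40 in P278KY libraries, so the balance of later to earlier marker also overlapped between genotypes.

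**Figure D2:**
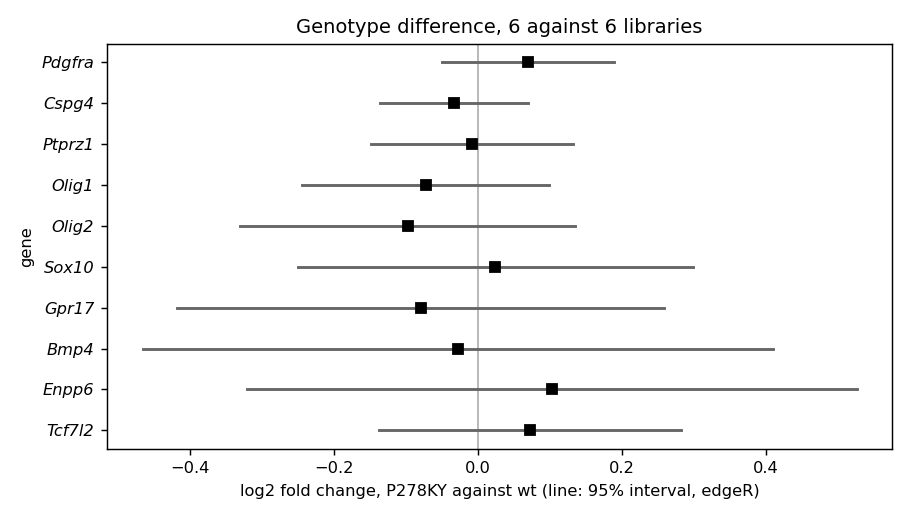
Log2 fold change of P278KY against wt for each gene (square) with its 95% interval (line) from edgeR over 6 and 6 libraries. Every interval includes 0, and the intervals of Bmp4 and Enpp6 are several times wider than that of Cspg4.

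Split by labelled sex, 0 of 10 members passed in females, in males or for the interaction (edgeR adjusted p, with 0% of all genes passing in each). Over all 12 libraries no member had an unadjusted p under 0.05 in any of these (0 of 10, edgeR), beside 10.7% of all genes in females, 4.91% in males and 10.9% for the interaction. DESeq2 also called 0 of 10 in each, where it called 2.05% of all genes in females, 0.19% in males and 1.73% for the interaction. Gpr17 had the smallest interaction p of the 10. Its log2 fold change was 0.16 ± 0.20 (SE) in females and -0.32 ± 0.20 in males, and the difference of 0.48 ± 0.29 did not pass (edgeR adjusted p = 0.579). With 1 library left out, the female value ran from 0.029 to 0.38. Without female P278KY 4, the library lowest in Gpr17, the interaction was 0.70 (edgeR unadjusted p = 0.00409, adjusted p = 0.179), with 0.38 in females (edgeR unadjusted p = 0.0221, adjusted p = 0.329) and -0.32 in males (edgeR unadjusted p = 0.031, adjusted p = 0.849). Ptprz1 was next, with 0.07 ± 0.09 in females, -0.09 ± 0.09 in males and a difference of 0.16 ± 0.12 (edgeR adjusted p = 0.694).

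RSEM reports for each library a transcript length averaged over a gene's transcripts by their abundance, which moves when the mix of transcripts moves. It was constant for the 6 members with 1 length in all libraries (Cspg4, Olig1, Olig2, Sox10, Gpr17 and Ptprz1). For Bmp4 it was 1838 ± 44.5 bases in wt and 1907 ± 47.6 bases in P278KY libraries (SD, n = 6 each; exact permutation p = 0.0303, adjusted p = 0.983 over the 11231 genes whose length varies), so it did not pass. Of those genes 0% passed and 4.61% had an unadjusted p under 0.05. The ranges overlapped, from 1793 to 1891 bases in wt and from 1847 to 1970 bases in P278KY libraries. Enpp6 (exact permutation p = 0.465), Pdgfra (0.509) and Tcf7l2 (0.693) did not pass either.

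The spread between mice differed widely among the members. The coefficient of variation of CPM over the 12 libraries was 5.03% for Cspg4, 6.40% for Pdgfra and 7.01% for Ptprz1, but 18.5% for Gpr17, 22.8% for Enpp6 and 23.5% for Bmp4. Counting error was small beside this, at most 6.50% for Bmp4 in its lowest library and 2.26% for Enpp6. Among the 10788 genes with a mean of at least 10 CPM, the SD of log2 CPM of Bmp4 ranked above 96.2%, that of Enpp6 above 95.9% and that of Gpr17 above 93.6%, whereas that of Cspg4 ranked above 15.7% and that of Pdgfra above 33.7%.

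The same 3 libraries were lowest in Enpp6, and they came from both genotypes. Enpp6 stood at 68.0 CPM in female wt 2, 68.7 CPM in female P278KY 4 and 66.2 CPM in male wt 6, and at 80.2 to 121.1 CPM in the other 9. Bmp4 was at 10.03, 8.34 and 9.99 CPM in those 3 libraries and at 11.8 to 18.0 CPM in the other 9. In CPM the 3 libraries were thus lowest in Bmp4 too. In TPM male wt 6, at 11.35, lay above male P278KY 3 (11.09) and male P278KY 13 (11.23), so there the 3 overlapped the rest. Pdgfra did not follow: at 211.5, 216.0 and 194.4 CPM in these 3, it lay within the 176.7 to 220.9 CPM of the other 9. Cspg4, at 94.8, 84.0 and 80.5 CPM, held both its highest and its lowest value among them.

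**Figure D3:**
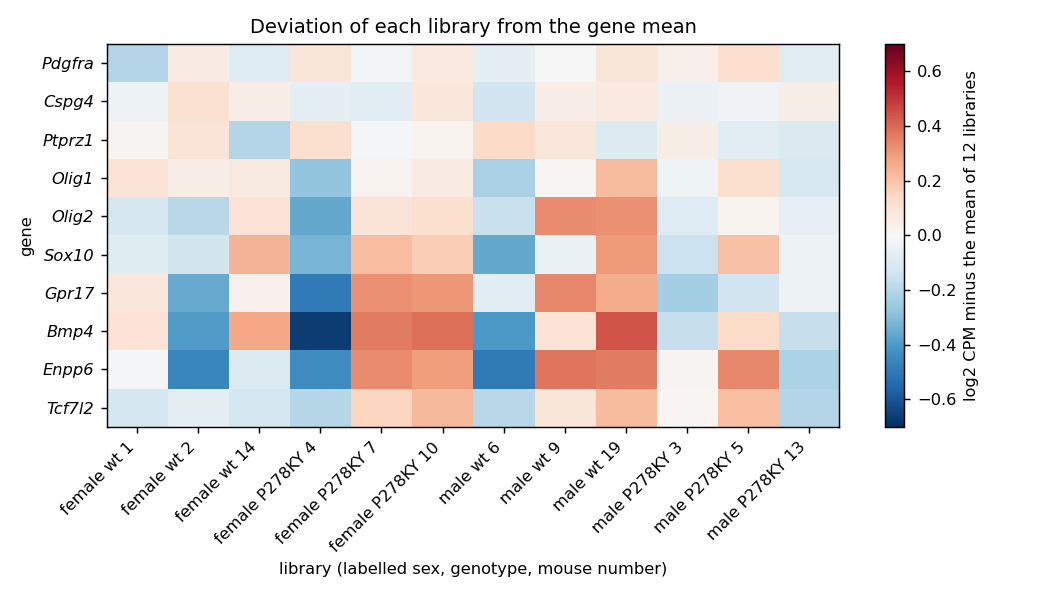
Log2 CPM of each gene in each library minus the gene's mean over 12 libraries, red for above and blue for below. Female wt 2, female P278KY 4 and male wt 6 are blue for Enpp6 and Bmp4, while the rows of Pdgfra, Cspg4 and Ptprz1 stay pale.

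A block of 7 members, the transcription factors Olig1, Olig2, Sox10 and Tcf7l2 with Gpr17, Bmp4 and Enpp6, varied together from mouse to mouse. Of the 45 pairs among the 10 genes, 19 had a Pearson r of log2 CPM past the threshold (permutation test with 100000 resamples over 12 libraries, adjusted over 45 pairs), 18 positive and 1 negative, and 13 did so by Spearman's rho. The block is made of the genes with a positive pair that passed, so all 18 positive pairs lie among those 7 genes. Within it, Gpr17 did not pass with Olig1 (r = 0.53), Sox10 (r = 0.63) or Tcf7l2 (r = 0.57). The share of passing pairs among other genes is not given here, so the count does not set these members apart. Sox10 with Bmp4 had the smallest p (r = 0.91, permutation p = 6e-05, adjusted p = 0.0027; rho = 0.91, permutation p = 8e-05, adjusted p = 0.0036), and its r was 0.89 in wt and 0.95 in P278KY libraries. Enpp6 with Tcf7l2 had r = 0.87 (adjusted permutation p = 0.0047; rho = 0.78, adjusted p = 0.0272). Olig2 with Gpr17 had r = 0.86 (adjusted permutation p = 0.0047; rho = 0.83, adjusted p = 0.0164), whereas the neighbours Olig1 and Olig2 had r = 0.68 (adjusted permutation p = 0.0369; rho = 0.49, adjusted p = 0.189). The 1 negative pair was Sox10 with Ptprz1 (r = -0.78, adjusted permutation p = 0.0149; rho = -0.85, adjusted p = 0.0164). Pdgfra with Cspg4, the standard pair of precursor markers, had r = 0.21 (adjusted permutation p = 0.602; rho = 0.22, adjusted p = 0.575).

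Much of this rests on few libraries. With the 2 libraries farthest from the median of the first gene of each pair left out, 4 of 45 pairs passed, and r was 0.89 for Sox10 with Bmp4 and 0.40 for Olig1 with Olig2. Without female P278KY 4 alone 10 pairs passed, and 12 passed without male wt 6, without male wt 19, or without both sex-discordant libraries. Without the 3 libraries lowest in Enpp6, a choice made after seeing the data, 1 pair passed, Enpp6 with Tcf7l2 (r = 0.93 over 9 libraries, exact permutation adjusted p = 0.0427), and Sox10 with Bmp4 had r = 0.85 (exact permutation adjusted p = 0.094).

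**Figure D4:**
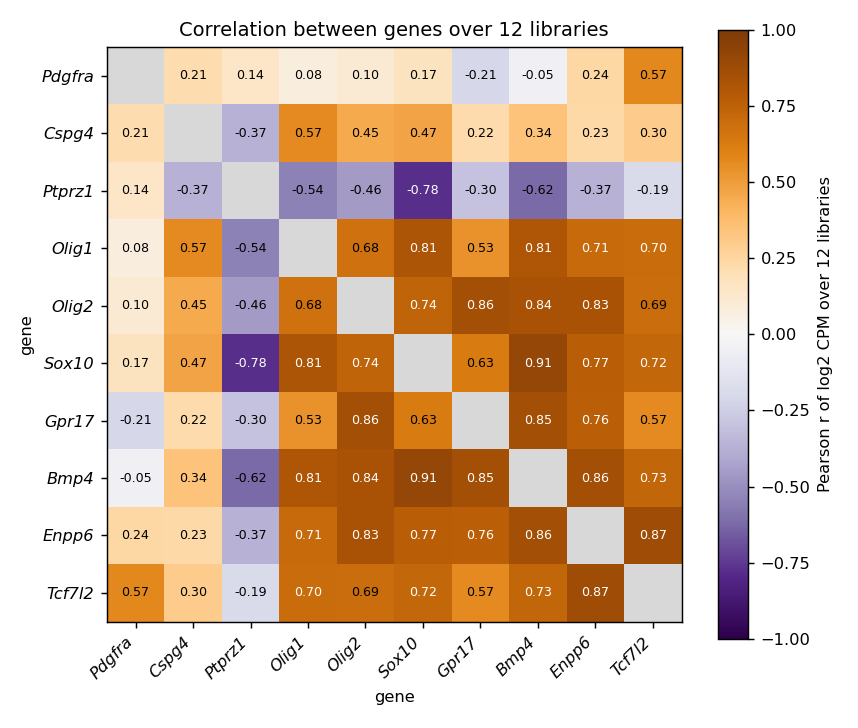
Pearson r of log2 CPM over 12 libraries for each pair of genes, orange for positive and purple for negative, with the value in each cell. The lower right block of 7 genes is orange throughout, Ptprz1 is purple against all of them, and Pdgfra is pale against all but Tcf7l2 (r = 0.57).

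The premyelinating marker Enpp6 followed the myelin genes closely across mice. Each of the 10 members was set against the 18 other gene lists, the library total and the number of genes detected. These 200 relations were computed after the first results were seen, and 19 passed by r and 6 by rho. The share that passes for other genes is not given here. Enpp6 against the mean log2 CPM of 12 myelin genes (Mbp, Mog and others) had r = 0.98 (permutation p = 1e-05, the smallest that 100000 resamples can give, adjusted p = 0.001; rho = 0.92, permutation p = 5e-05, adjusted p = 0.00333). This r was 0.97 in wt (exact permutation p = 0.00417) and 0.99 in P278KY libraries (exact permutation p = 0.00139; n = 6 each). It was 0.96 without the 2 libraries farthest from the Enpp6 median and 0.93 without the 3 lowest (n = 9, exact permutation p = 0.000276). The myelin mean itself was lowest in those 3 libraries, at 8.16 to 8.18 log2 CPM, and reached 9.01 in male P278KY 5.

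Tcf7l2 also followed the myelin genes (r = 0.83, adjusted permutation p = 0.0311; rho = 0.80, adjusted p = 0.0545), with r = 0.83 without the 3 lowest libraries (exact permutation p = 0.00749, n = 9). Bmp4 did so over all 12 (r = 0.82, adjusted permutation p = 0.0304; rho = 0.71, adjusted p = 0.0894) but not without those 3 (r = 0.44, exact permutation p = 0.23, n = 9). Over all 12, Pdgfra (r = 0.15, adjusted permutation p = 0.789, and rho = 0.20, adjusted p = 0.699) and Cspg4 (r = 0.13, adjusted permutation p = 0.817, and rho = 0.22, adjusted p = 0.657) did not pass. Without those 3 libraries, r was 0.55 for Pdgfra (exact permutation p = 0.123, n = 9), above that of Bmp4. For Cspg4 it was -0.26 (exact permutation p = 0.481, n = 9). Enpp6 was likewise related to the 12 other committed and premyelinating genes, among them Bcas1 and Myrf (r = 0.96, adjusted permutation p = 0.001; rho = 0.94, adjusted p = 0.00333). By r those 12 genes also passed with Bmp4 (r = 0.87, adjusted permutation p = 0.0135), Tcf7l2 (0.85, 0.0213), Olig1 (0.84, 0.0135), Sox10 (0.83, 0.024) and Olig2 (0.79, 0.0311). By rho only Enpp6 passed with them. Gpr17 was related most to the other precursor genes (r = 0.87, adjusted permutation p = 0.0135, and rho = 0.83, adjusted p = 0.0487). Those precursor genes also passed by r with Enpp6 (r = 0.80, adjusted permutation p = 0.0311), Bmp4 (0.88, 0.0125), Tcf7l2 (0.78, 0.0427) and Sox10 (0.77, 0.0451). By rho Bmp4 passed with them (adjusted permutation p = 0.0184), and Enpp6, Tcf7l2 and Sox10 did not. Pdgfra (r = 0.06) and Cspg4 (r = 0.33) did not pass with them either.

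**Figure D5:**
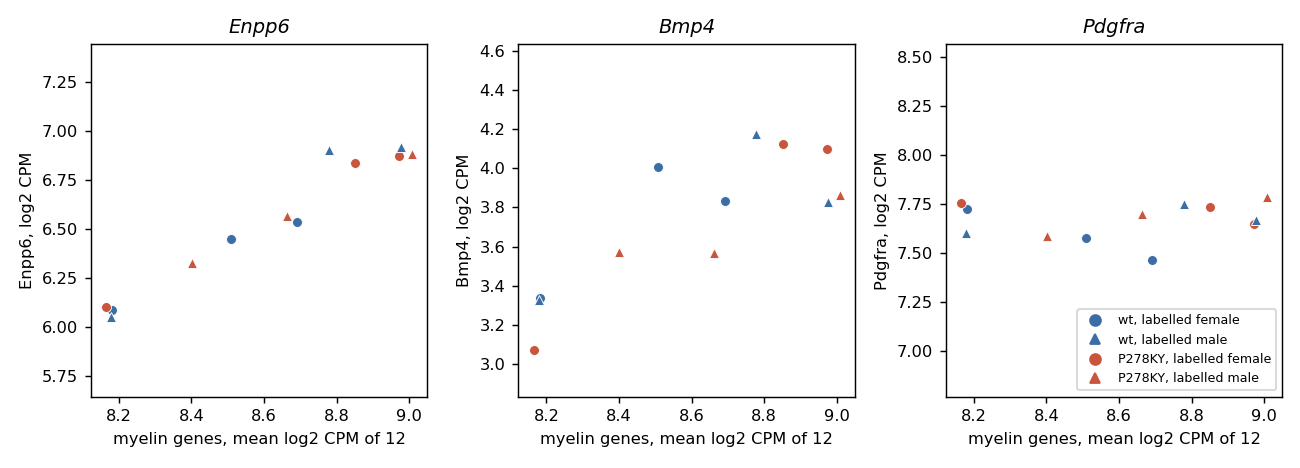
Log2 CPM of Enpp6, Bmp4 and Pdgfra against the mean log2 CPM of 12 myelin genes, 1 point per library and the same span on each vertical axis. Over all 12 libraries Enpp6 climbs along a line (r = 0.98), Bmp4 with more scatter (r = 0.82) and Pdgfra shows little slope (r = 0.15). Points of wt and P278KY are mixed in each panel. Without the 3 libraries lowest in Enpp6, r was 0.44 for Bmp4 and 0.55 for Pdgfra.

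Markers of other cells moved with some of these genes. Sox10 was related to 6 microglia markers (r = 0.89, adjusted permutation p = 0.004; rho = 0.91, adjusted p = 0.0045) and to 8 mural cell markers (r = 0.81, adjusted permutation p = 0.0344; rho = 0.65, adjusted p = 0.145), and Bmp4 to the microglia markers (r = 0.83, adjusted permutation p = 0.0135; rho = 0.92, adjusted p = 0.00333). The summed microglia level ran from 161.4 to 232.4 CPM in wt and from 174.0 to 267.3 CPM in the mutants, with the lowest in male wt 6. Their part in the covariation of the members was not tested. Tcf7l2 had r = -0.77 with 7 neuron markers (adjusted permutation p = 0.0472; rho = -0.66, adjusted p = 0.134). Against library total the r of the 10 members lay between -0.16 and 0.30, with 0 of 10 passing.

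Several members are also made by other cells of the sample, and 7 such relations were tested as a family of their own. None passed by r, and 2 passed by rho. Sox10, also a gene of Schwann cells, had r = 0.04 with 9 Schwann cell markers (adjusted permutation p = 0.898; rho = -0.10, adjusted p = 0.768). Pdgfra, also a gene of fibroblasts, had r = 0.22 with 9 markers of meninges and fibroblasts (adjusted permutation p = 0.768; rho = 0.12, adjusted p = 0.768). Cspg4 had r = 0.48 with mural cell markers (adjusted permutation p = 0.261; rho = 0.43, adjusted p = 0.379) and r = -0.19 with skeletal muscle markers (adjusted permutation p = 0.768; rho = -0.33, adjusted p = 0.519). The 2 that passed by rho were Bmp4 with 8 endothelial markers (rho = 0.73, adjusted permutation p = 0.0316; r = 0.62, adjusted p = 0.11) and Tcf7l2 with 8 astrocyte markers (rho = 0.74, adjusted permutation p = 0.0316; r = 0.65, adjusted p = 0.11), and without the 2 farthest libraries their r was 0.53 and 0.52. Ptprz1 had r = 0.10 with the astrocyte markers (adjusted permutation p = 0.873; rho = -0.10, adjusted p = 0.768), and r turned to -0.66 without the 2 farthest libraries (unadjusted permutation p = 0.0368).

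Over the 12 libraries, the genes whose order of levels was most like that of Enpp6 were Cldn11, a tight junction gene of myelin (Spearman rho 0.97), March8 (0.97) and Bcas1, a gene of early myelinating cells (0.97), out of 13672 genes searched. Those most like Bmp4 were Abhd4 (0.98), Fmnl3 (0.98) and Lsm10 (0.97). Those most like Gpr17 were Zfp101 (0.96), Atp6v0a2 (0.95) and Hr (0.95), those most like Pdgfra were Zfand1 (0.97), H3f3a (0.94) and Smarce1 (0.94), and those most like Sox10 were Tln1 (0.97), Zdhhc7 (0.97) and Commd9 (0.94). For Olig1 they were S100a1 (0.97), Fbxo2 (0.93) and Pcbp4 (0.93), and for Olig2 Ighm (0.97), Slc45a3 (0.97) and Ccr2 (0.97). For Tcf7l2 they were Ube2l3 (0.96), Aldh3a2 (0.92) and Efs (0.92), for Ptprz1 Gpr98, Pcdh10 and Zfp462 (0.95 each), and for Cspg4 Ugt1a7c (0.91), Pglyrp1 (0.89) and Plekho1 (0.87). These values are descriptions, the highest of many.

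Lists of other genes of the lineage and of pathways that act on it were compared at the RNA level. By genotype 0 genes of any of these lists passed. RNA levels of ligands, receptors and effectors do not measure pathway activity, which was not tested. Of 12 other precursor genes tested, 7 had a higher and 5 a lower fitted level in P278KY, with a median log2 fold change of 0.01. Tmem100 had 0.23 ± 0.09 (SE, edgeR unadjusted p = 0.0295) and Emid1 -0.47 ± 0.27. Of 12 other committed and premyelinating genes, 7 were higher and 5 lower, with a median of 0.01, led by Kif19a at -0.14 ± 0.11 and Fyn, a kinase of myelin initiation, at 0.06 ± 0.06. Of 12 myelin genes, 11 had a higher and 1 a lower fitted level, where 53.1% of all genes had a lower one. This split was not tested, and the 12 genes cannot be taken as independent. Their mean ran from 8.16 (female P278KY 4) to 9.01 log2 CPM (male P278KY 5) across libraries. Their median log2 fold change was 0.10, led by Aspa (0.25 ± 0.19) and Ugt8a (0.20 ± 0.15). An unadjusted p under 0.05 (edgeR) was found for 0 of these 12, beside 4.09% of all genes. Their summed level overlapped between genotypes, at 14927 to 27192 CPM in wt and 15014 to 26961 CPM in P278KY libraries.

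Among ligands, the PDGF list split 3 higher and 2 lower (median 0.02), with Pdgfa, the main ligand of PDGFRA on precursors, at 47.4 ± 2.08 CPM in wt and 47.1 ± 4.04 CPM in mutant cords (SD over 6 libraries), a gene named after its values were seen. On the log2 scale Pdgfd differed by 0.07 ± 0.10 (SE) and Pdgfb by -0.04 ± 0.07. The BMP list split 11 and 4 (median 0.04). Its receptor gene Bmpr1a had 0.20 ± 0.07 (edgeR unadjusted p = 0.0131) and the ligand gene Bmp7 -0.27 ± 0.11 (edgeR unadjusted p = 0.0289), and neither passed after adjustment. The WNT list split 9 and 4 (median 0.01), led by Lgr5 (-0.16 ± 0.08) and Tcf7 (0.13 ± 0.14). Of the 5 genes whose products bind PTPRZ1, 3 were higher (median 0.04), led by the matrix gene Tnc (0.23 ± 0.12) and the growth factor gene Mdk (0.15 ± 0.09). Of the 6 hedgehog genes 4 were lower (median -0.17), with the receptor and target Ptch1 at -0.22 ± 0.06 (edgeR unadjusted p = 0.00508), from 72.4 ± 4.47 to 62.3 ± 6.11 CPM, and the ligand Shh at -0.35 ± 0.16 (edgeR unadjusted p = 0.0473), from 3.43 ± 0.600 to 2.69 ± 0.478 CPM (SD, n = 6 each). Beside these, 4.09% of all genes had an unadjusted p under 0.05 by genotype.

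Some counts may be shared with overlapping genes, since the labels do not give the strand setting of the counting. On GRCm38, Gpr17 (chromosome 18, 31942997 to 31949636, minus strand) shares 188 exonic bases with Lims2 on the other strand, which had 12.2 CPM. Olig1 shares 157 with Gm15966 and Bmp4 shares 89 with Gm15217, both on the opposite strand and both outside the tested genes. Pdgfra shares 456 with Gm42802 and 166 with Gm42803, both on the opposite strand and neither among the 38924 genes of the deposited data. On its own strand Pdgfra shares 30 with Mir7025, which is among them but outside the tested genes. Cspg4, Olig2, Sox10 and Ptprz1 overlap no other annotated gene.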

How the data were processed

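Spinal cord libraries of 12 mice were measured, per the labels' protocols from poly(A) RNA with KAPA stranded kits and paired-end Illumina sequencing. The submitters' processing notes list RSEM 1.2.12 and Bowtie2 2.2.0 without their roles. For genome build, annotation and strand setting the answer is: not given in the sources used here. The deposited files hold, per the file headers, an expected count, a TPM value that the authors scaled to transcript length and library total, and an abundance-weighted transcript length for 38924 genes, each with a gene name.

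Expected counts were rounded, filtered with filterByExpr over the 4 groups and scaled by TMM. Tests used edgeR 4.0.16 (quasi-likelihood, robust) in R 4.3.3 fitted to the 12 libraries together, labelled sex being a term, and a mean per group for effects within sexes, Benjamini-Hochberg adjusted over 17995 genes at a threshold of 0.05. No mouse number occurs in 2 groups, so nothing pairs the groups. Standard errors are the log2 fold change over the square root of F, and intervals are at 95%. Exact permutation tests compared 6 with 6 libraries (924 splits, smallest p 0.00216), on log2 CPM for levels and on bases for transcript length. Log2 CPM used a prior count of 2. Alternatives were RLE factors, library totals, no filter, a strict filter (at least 6 libraries with CPM over 1), limma 3.58.1 trend on log2(TPM + 1), DESeq2 1.42.0, no sex term, and libraries left out. Leaving out 1 library for the relations between genes, the 200 relations with lists and the omission of the 3 libraries lowest in Enpp6 were chosen after seeing the data. The procedure was tested on simulated data.

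The members and lists were chosen with earlier results of these data known. Of 174 listed symbols, 172 matched 1 row. All members are named, the 2 genes of smallest p for each pathway list, the 2 members of smallest interaction p, and for likeness the 3 genes of highest rho with a mean of at least 1 CPM, predicted genes passed over. Positions come from GENCODE M21 (GRCm38), which may not be the authors' build.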

Additional observations from a re-analysis of the deposited data

How the results depend on the processing

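No member passed by genotype, within a sex or for the interaction under any of the 20 alternative settings that could be applied to it (no sex term applies to the genotype comparison only), each library left out in turn included. Over all genes, the 1 call by genotype became 0 with the strict filter, 33 with DESeq2, 2 with no sex term and 0 without the 2 sex-discordant wt libraries, and 1 to 3 with 1 library left out. In females the 0 calls became 296 with DESeq2 and 11 without the 2 discordant libraries (0 to 9 with 1 left out), in males 34 and 4 (0 to 4), and for the interaction 279 and 5 (0 to 3), with 3 under no filter. Small differences changed sign. Sox10 by genotype was -0.010 on log2(TPM + 1) and -0.041 to 0.10 with 1 library left out, Bmp4 was 0.15 without the discordant libraries and -0.12 to 0.083 with 1 left out, and Ptprz1 -0.051 to 0.022. In females Ptprz1 was -0.0074 without the discordant libraries and -0.0075 to 0.13 with 1 left out.

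The 19 pairs that passed became 4 without the 2 libraries farthest from the median, 12 on log2(TPM + 1), 12 without the discordant libraries, 1 without the 3 libraries lowest in Enpp6 and 10 to 21 with 1 library left out. Pdgfra with Cspg4 turned to r = -0.24 on log2(TPM + 1). Of the 7 marker relations, 0 to 2 passed with 1 library left out, the 2 without female wt 1 being Bmp4 with endothelium (r = 0.75) and Tcf7l2 with astrocytes (r = 0.73). Ptprz1 with astrocytes turned to -0.66 without the 2 farthest libraries and -0.38 without the discordant ones (-0.45 to 0.39 with 1 left out), and Sox10 with Schwann cells to -0.048 (-0.18 to 0.21). Pdgfra with meninges ran from -0.16 to 0.59 and Cspg4 with muscle from -0.54 to 0.024. With the myelin list, Pdgfra turned to -0.12 and Cspg4 to -0.071 on log2(TPM + 1). Without the 3 lowest libraries Pdgfra rose to 0.55 and Cspg4 turned to -0.26. With 1 left out their ranges were -0.00379 to 0.32 and -0.16 to 0.39. Enpp6 with the myelin list stayed between 0.97 and 0.99 with 1 library left out. It was 0.96 without the 2 farthest libraries and 0.93 without the 3 lowest. The Tcf7l2 length difference ran from -51.0 to 11.1 bases with 1 library left out. The cause of these changes was not tested, except that fewer libraries enter where some are left out. With 6 libraries per genotype, intervals of the variable members stay wide. The p-values set each difference or relation against the spread between libraries. With 1 library per mouse, that spread cannot be split into mouse and handling. No paired analysis was possible because the groups share no mouse number.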
